A study of Mus musculus with 12 samples.

Results

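Collagen chain genes encode the alpha chains of the collagens, the main structural proteins of the extracellular matrix. The set held every gene of the deposited table whose mouse symbol, found through its Entrez identifier, is Col, a number, the letter a and a number, and these were 44 of 19212 genes. The measure was messenger RNA sequenced from 12 mouse samples labelled lung cancer, in 4 groups of 3. All were made with LLC, the mouse Lewis lung carcinoma line. In OTUB1_KD the LLC cells had been given a lentivirus for OTUB1 knockdown before they were used to build orthotopic lung tumours in mice, and in NC they had been given a negative-control lentivirus. SFD@M tumours came from mice treated with the agent of that name, which the labels do not describe, and Blank tumours from mice given physiological saline. NC, SFD@M and Blank carry the genotype label WT. The labels give no strain, sex, age, dose or day, and do not say whether the replicates of a group came from separate mice, so each p-value covers only how far these libraries scatter, part of which could be technical.

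Each collagen molecule is a triple helix of alpha chains, which a cell makes in fixed combinations. Fibrillar collagens (types I, II, III, V, XI, XXIV and XXVII) build or nucleate fibrils and come mainly from fibroblasts and other mesenchymal cells. Type IV is the sheet-forming collagen of basement membranes: its alpha-1 and alpha-2 chains occur in nearly all of them, and alpha-3, alpha-4 and alpha-5 form a separate network in the alveolus and the kidney glomerulus. Type VI forms beaded filaments, FACIT collagens sit on fibril surfaces, the multiplexins XV and XVIII lie in basement membrane zones, and types XIII, XVII, XXIII and XXV span the cell membrane.

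Libraries held 16062814 to 18028825 counts. Leukocyte markers were nearly absent from the controls although the labels call all samples lung cancer tissue. The summed level of 6 leukocyte genes was 551 to 739 CPM (counts scaled to a common library total) in OTUB1_KD and 3.42 to 3.51 CPM in NC, and 481 to 564 CPM in SFD@M and 1.11 to 1.91 CPM in Blank. Cd3e, a defining T cell gene, was at 0 in both controls. Fibroblast markers were present there, the sum of 12 being 436 to 447 CPM in NC and 486 to 496 CPM in Blank. The sum of 4 Y-linked transcripts, which only male cells make, ran the other way from the leukocyte genes. It stood at 36.9, 0.184 and 7.08% of the NC mean in OTUB1_KD replicates 1, 2 and 3, and at 0.442, 0.0475 and 0.158% of the Blank mean in SFD@M replicates 1, 2 and 3. OTUB1_KD replicates 1 and 3 kept more of it than the other 4 libraries of these groups. Otub1 itself, the target of the knockdown, was at 58.6, 49.3 and 71.2 CPM in OTUB1_KD, overlapping the 69.8 to 76.2 CPM of NC. All directions below are those of the labelled libraries. In bulk RNA, fewer cells of a type and less RNA per cell cannot be told apart.

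The promoters of 4 members on which the account turns are shown as the RefSeq windows of GRCm38.p6, cut to the 250 bases before the annotated start and read in the direction of the gene. Col4a5 and Col4a6 are a head-to-head pair whose starts lie 1343 bases apart, and both were at or under 1 CPM in the controls. Col1a2 was the most abundant chain gene with a large rise, and Col24a1 had the largest fall. Col4a5 is at chrX:141475169-141475418 on the plus strand, Col4a6 at chrX:141474077-141474326 on the minus strand, Col1a2 at chr6:4505368-4505617 on the plus strand and Col24a1 at chr3:145292222-145292471 on the plus strand. Capitals mark the CCAAT box and the GC box, whose letters are GGGCGG, on either strand, so that a GC box of the opposite strand stands as CCGCCC in the line. The TATA box, with the letters TATAAA, was also searched on both strands and is in none of the 4.
Col4a5: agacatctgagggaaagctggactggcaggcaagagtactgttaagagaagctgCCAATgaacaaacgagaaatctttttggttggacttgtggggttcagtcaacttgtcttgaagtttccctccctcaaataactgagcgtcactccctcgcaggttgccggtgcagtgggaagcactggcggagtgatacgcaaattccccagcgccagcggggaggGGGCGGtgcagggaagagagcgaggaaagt
Col4a6: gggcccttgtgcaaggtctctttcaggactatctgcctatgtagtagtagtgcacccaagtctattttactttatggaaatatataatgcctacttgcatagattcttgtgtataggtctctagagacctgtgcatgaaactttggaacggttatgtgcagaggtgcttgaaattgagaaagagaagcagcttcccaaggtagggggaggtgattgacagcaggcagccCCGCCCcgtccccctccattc
Col1a2: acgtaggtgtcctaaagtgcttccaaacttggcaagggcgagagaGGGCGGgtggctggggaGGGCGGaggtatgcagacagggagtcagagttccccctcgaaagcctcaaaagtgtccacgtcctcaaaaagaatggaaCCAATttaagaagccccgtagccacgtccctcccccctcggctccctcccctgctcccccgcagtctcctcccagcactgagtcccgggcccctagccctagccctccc
Col24a1: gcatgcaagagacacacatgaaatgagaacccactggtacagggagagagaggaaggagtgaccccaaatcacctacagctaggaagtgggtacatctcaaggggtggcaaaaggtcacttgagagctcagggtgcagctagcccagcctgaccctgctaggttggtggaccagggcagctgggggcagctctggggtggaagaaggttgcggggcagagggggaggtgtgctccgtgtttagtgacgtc
The Col4a5 window holds 1 CCAAT and 1 GGGCGG, that of Col4a6 holds 1 GGGCGG, that of Col1a2 holds 1 CCAAT and 2 GGGCGG, and that of Col24a1 holds neither. Over 32851 windows of the same length in the table, 33.8% hold CCAAT, 32.7% GGGCGG and 12.4% TATAAA. Of the 38 windows of 35 collagen genes, 13 hold CCAAT, 22 GGGCGG and 5 TATAAA. A match is a description of the letters.

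The libraries of all groups carried collagen RNA, and genes at 1 CPM or more in both controls supplied most of it in every library. Collagen counts were 0.885, 0.673 and 0.736% of all counts in OTUB1_KD and 0.682, 0.709 and 0.706% in NC. They were 0.376, 0.540 and 0.531% in SFD@M, below the 0.597, 0.594 and 0.601% of Blank. The number of chain genes at 1 CPM or more was 34 in every OTUB1_KD library and 24 in every NC library, and 32 to 34 in SFD@M and 22 or 23 in Blank. By group means, 22 of the 44 genes were at 1 CPM or more in both NC and Blank. Another 10 were under 1 CPM in both controls and at 1 CPM or more in both OTUB1_KD and SFD@M: Col4a3, Col4a5, Col4a6, Col6a5, Col8a2, Col13a1, Col17a1, Col23a1, Col27a1 and Col28a1. A further 9 stayed under 1 CPM in every group: Col6a4, Col6a6, Col9a1, Col9a2, Col10a1, Col11a1, Col19a1, Col25a1 and Col26a1. Among them are chains of cartilage, and 0 of 8 chondrocyte markers reached 1 CPM in OTUB1_KD or SFD@M, beside 2 in NC and 0 in Blank. Col2a1, the cartilage fibril chain, was among the 22 genes, at 4.66 CPM in NC and 2.42 CPM in Blank. The remaining 3, Col9a3, Col15a1 and Col22a1, lay near the limit in at least 1 group. The 10 genes under 1 CPM in the controls were picked by these same levels, so their contrast with the controls was fixed by the choice. They made up 3.01, 7.99 and 4.46% of collagen TPM (a level per transcript length, scaled to a common total) in OTUB1_KD and at most 0.0657% in NC. They made up 12.9, 10.4 and 9.95% in SFD@M and at most 0.0345% in Blank. The 22 genes at 1 CPM or more in both controls held 96.3, 91.4 and 95.1% of collagen TPM in OTUB1_KD. In SFD@M those 22 genes held 86.7, 89.1 and 89.5%. Some of the 22 were low in the controls and far higher in the other groups. Col1a2 was at 4.34 CPM in Blank and 419 CPM in SFD@M, and Col4a4 at 1.08 and 212 CPM. Others fell, so these shares do not measure RNA at its control level.

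**Figure D1:**
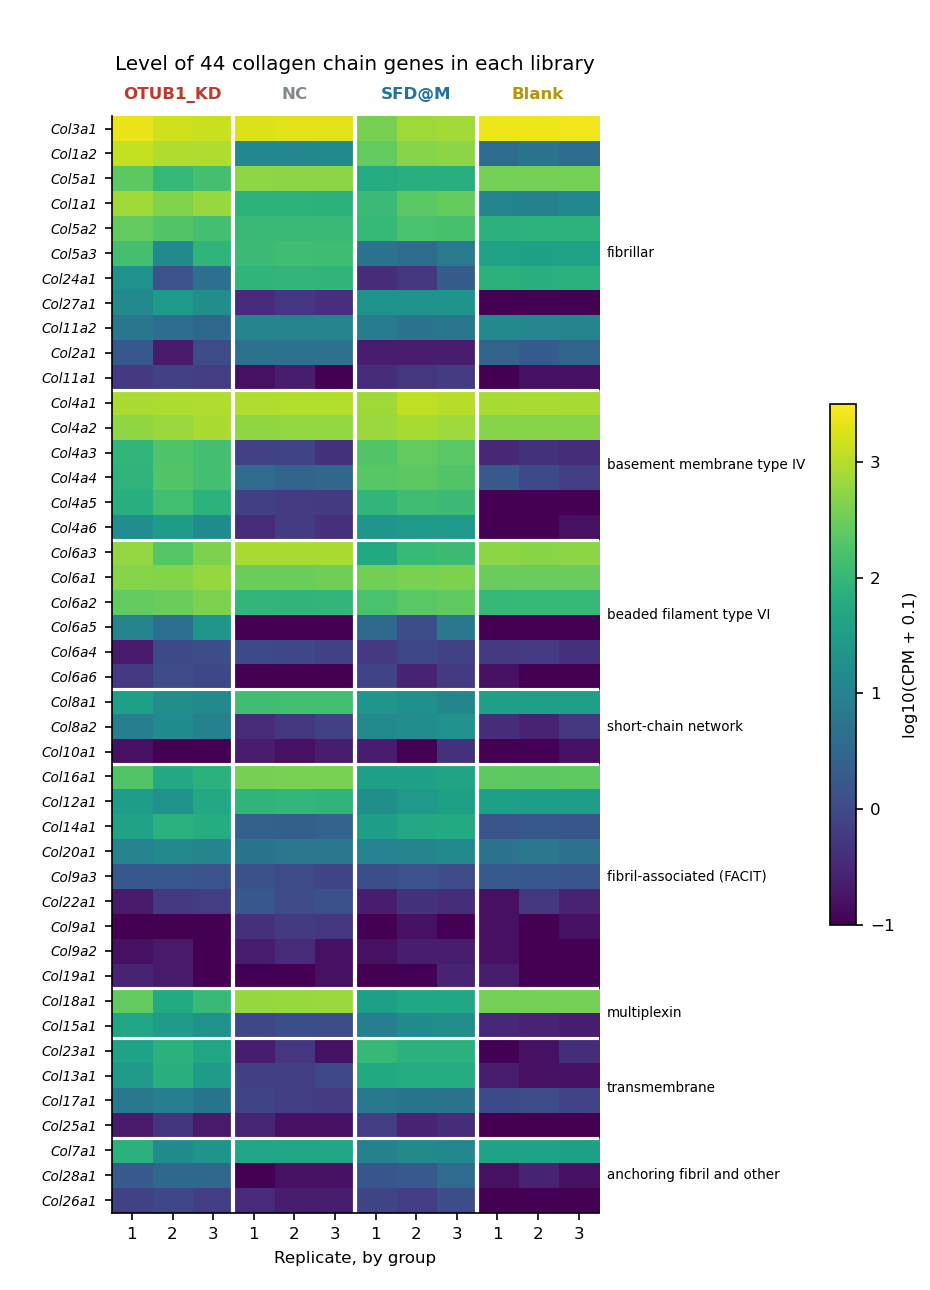
Level of the 44 collagen chain genes (rows, ordered by class) in the 12 libraries (columns, by group and replicate), as log10(CPM + 0.1) in colour. The 10 genes chosen as under 1 CPM in both controls are dark there and lighter in OTUB1_KD and SFD@M by that choice. Col3a1, Col4a1 and Col4a2 are bright in every library.

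Against NC, 19 chain genes rose and 10 fell in OTUB1_KD, of 36 that passed the low-count filter (edgeR quasi-likelihood test, Benjamini-Hochberg adjusted p below 0.05 over all genes). Of all 14786 genes tested, 65.8% were called, 39.9% higher and 25.8% lower. In SFD@M against Blank, 21 chain genes rose and 11 fell of 35 tested, where 88.1% of 14824 genes were called, 49.5% higher and 38.7% lower. The shares of chain genes called are thus to be read against a background in which most genes changed. The median log2 fold change of the chain genes tested was 0.75 in OTUB1_KD against NC, beside 0.16 over all genes, and 1.04 in SFD@M against Blank, beside 0.23. With the members fitted against 0 to 3 control counts set at their bounds, both medians stay as they are. On log2(TPM + 1) the chain-gene medians were 0.51 in OTUB1_KD against NC and 0.55 in SFD@M against Blank. On that scale the median of all genes was -0.02 and -0.03, a shift of over 0.1 that bears on the small changes below. Of 34 genes tested in both comparisons, 19 were called higher in both, 8 lower in both and 0 in opposite directions. Among the rises, Col4a3, Col4a5, Col4a6, Col6a5, Col8a2, Col23a1, Col27a1 and Col28a1 failed the filter in Blank against NC. They were tested only because OTUB1_KD or SFD@M was high, so their direction and its agreement are not evidence. The same holds in SFD@M against Blank for Col13a1, Col15a1 and Col26a1. All these genes also enter the rises and medians above. Libraries did not overlap for 20 chain genes above and 10 below NC, beside 45.6 and 32.6% of all genes, and for 21 above and 12 below Blank, beside 51.3 and 38.9%. Without OTUB1_KD replicate 1, 20 rose and 12 fell against NC, beside 6423 and 4719 of all 14989 genes. Without replicate 3, 20 rose and 7 fell, beside 6127 and 3775 of 15014.

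Among fibrillar chains, both type I genes rose in OTUB1_KD and SFD@M, while Col5a1, Col2a1, Col11a2 and Col24a1 fell in both. Col1a2, which encodes the alpha-2 chain of type I collagen, the main fibril of connective tissue, was at 1295, 907 and 912 CPM in OTUB1_KD and at 12.4, 11.9 and 13.4 CPM in NC. It was at 262, 474 and 522 CPM in SFD@M and at 3.84, 5.33 and 3.85 CPM in Blank. The groups were far from overlapping, with log2 fold changes of 6.30 ± 0.26 (SE, edgeR adjusted p = 1.2e-05) and 6.56 ± 0.34 (edgeR adjusted p = 9.1e-07). Col1a1, the alpha-1 chain of the same molecule, was at 717, 440 and 636 CPM in OTUB1_KD and at 82.1, 81.1 and 77.6 CPM in NC. It was at 118, 219 and 269 CPM in SFD@M and at 10.6, 9.45 and 12.3 CPM in Blank. Its changes were smaller, at 2.83 ± 0.24 (edgeR adjusted p = 0.0001) and 4.19 ± 0.33 (edgeR adjusted p = 9.3e-06). Type I collagen is usually built from alpha-1 and alpha-2 chains in one molecule with more alpha-1. Per length, the ratio of Col1a1 to Col1a2 TPM was 0.507 ± 0.0954 in OTUB1_KD and 5.61 ± 0.478 in NC (SD, n = 3), and 0.417 ± 0.0305 in SFD@M and 2.25 ± 0.643 in Blank. In these libraries Col1a2 RNA exceeded Col1a1 RNA in all 6 OTUB1_KD and SFD@M libraries and in none of the 6 controls.

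Col3a1, which encodes the single chain of type III collagen, was the most abundant collagen of the controls. Its CPM was 2343, 1510.4 and 1302 in OTUB1_KD and 1864, 1976 and 1955 in NC, which overlap, and the change did not pass the test (-0.24 ± 0.26, edgeR adjusted p = 0.44). Without OTUB1_KD replicate 1 it passed at -0.54 (edgeR adjusted p = 0.00903). In SFD@M it was at 371, 693 and 761 CPM, against 2449, 2425 and 2492 CPM in Blank, so every SFD@M library lay below every Blank library. It fell by 2.05 ± 0.25 on the log2 scale (edgeR adjusted p = 0.000128). Per length it ranked first among the chain genes in OTUB1_KD (429 TPM), NC (557 TPM) and Blank (730 TPM) and came behind Col4a1 and Col4a2 in SFD@M (147 TPM). The ratio of Col3a1 to Col1a1 TPM was 3.12 ± 0.811 in OTUB1_KD and 25.8 ± 1.34 in NC (SD, n = 3), and 3.26 ± 0.204 in SFD@M and 246 ± 28.8 in Blank.

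The type V chains, which nucleate fibrils and set their width, split by gene. Col5a1 was at 236, 99.8 and 147 CPM in OTUB1_KD and at 534, 530 and 518 CPM in NC, and at 58.3, 65.3 and 65.8 CPM in SFD@M and 368, 367 and 368 CPM in Blank. It fell by 1.78 ± 0.32 (edgeR adjusted p = 0.00283) and dropped by 2.58 ± 0.07 (edgeR adjusted p = 2.7e-08). Col5a2 rose instead, by 0.84 ± 0.23 in OTUB1_KD (edgeR adjusted p = 0.0155) and 0.77 ± 0.16 in SFD@M (edgeR adjusted p = 0.00272). The call of Col5a2 in OTUB1_KD was lost without any 1 of the NC replicates (edgeR adjusted p = 0.055 to 0.0653). Col5a1 and Col5a2 chains share a molecule, and their TPM ratio was 0.636 ± 0.217 in OTUB1_KD and 3.82 ± 0.134 in NC (SD, n = 3), and 0.371 ± 0.0696 in SFD@M and 3.63 ± 0.13 in Blank. Col5a3 ranged widely in OTUB1_KD, at 147, 14.3 and 88.9 CPM against 121 to 131 CPM in NC (-0.67, edgeR adjusted p = 0.414), and fell by 2.85 ± 0.20 in SFD@M (edgeR adjusted p = 4.4e-06).

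The less common fibrillar chains gave the steepest fall. Col24a1, whose product is a minor fibrillar collagen described in developing bone and cornea, was at 19.5, 1.33 and 4.22 CPM in OTUB1_KD and at 87.9, 90.2 and 89.1 CPM in NC. It was at 0.294, 0.412 and 2.00 CPM in SFD@M and at 77.2, 70.3 and 74.9 CPM in Blank. It fell by 3.48 ± 0.85 (edgeR adjusted p = 0.0101) and dropped by 6.39 ± 0.38 (edgeR adjusted p = 2.0e-06). Col2a1, the cartilage fibril chain, stood lower, between 0.116 and 1.60 CPM in OTUB1_KD and between 4.61 and 4.69 CPM in NC (-2.42 ± 0.69, edgeR adjusted p = 0.0189; 0.0587 without OTUB1_KD replicate 3), and fell by 4.32 ± 0.34 in SFD@M (edgeR adjusted p = 7.3e-06). Col11a2 fell by 1.42 in OTUB1_KD and dropped by 1.01 in SFD@M. Col27a1, another fibrillar chain, was at 13.8 to 29.4 CPM in OTUB1_KD and 0.249 to 0.416 CPM in NC, and at 19.2 to 21.3 CPM in SFD@M, at least 349.7-fold higher than the floor of 3 counts over the Blank group, where it had 0. Of 10 fibrillar genes tested in each comparison, 4 rose and 4 fell in OTUB1_KD, and 4 rose and 6 fell in SFD@M.

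Type IV collagen showed a sharp contrast between its chains. Col4a1 and Col4a2, the chains of the general basement membrane, were high in every library, and their changes were small beside those of the other 4 chains. Col4a1 was at 856, 871 and 929 CPM in OTUB1_KD and 918, 950 and 956 CPM in NC (-0.15 ± 0.17, edgeR adjusted p = 0.438), and at 724, 1163 and 1047 CPM in SFD@M and 811, 836 and 826 CPM in Blank (0.21 ± 0.17, edgeR adjusted p = 0.258). Without SFD@M replicate 1, the lowest, it was called in SFD@M at 0.40 (edgeR adjusted p = 0.000165), and on the deposited TPM it stood at -0.08. Col4a2 did not pass in OTUB1_KD (0.20, edgeR adjusted p = 0.438) and rose by 0.55 ± 0.09 in SFD@M (edgeR adjusted p = 0.000679), or 0.32 relative to the median of all genes. The other 4 chains reached at most 3.67 CPM in any control library. Col4a3 was at 89.8, 181 and 145 CPM in OTUB1_KD and at 0.685, 0.713 and 0.356 CPM in NC, and at 190, 266 and 224 CPM in SFD@M and 0.232, 0.348 and 0.292 CPM in Blank. Its rises of 7.81 ± 0.41 (edgeR adjusted p = 2.3e-05) and 9.54 ± 0.23 (edgeR adjusted p = 2.4e-08) were matched in direction by Col4a4, at 5.40 ± 0.37 and 7.56 ± 0.23. Col4a5, whose promoter is printed above, was at 69.5, 139 and 80.9 CPM in OTUB1_KD and at 0.623, 0.535 and 0.474 CPM in NC, a rise of 7.38 ± 0.38 (edgeR adjusted p = 2.1e-05). In SFD@M it was at 91.8, 133 and 120 CPM, at least 1980-fold higher than the floor in Blank, where it had 0 counts. Its neighbour Col4a6 was at 15.9, 29.1 and 15.2 CPM in OTUB1_KD and 0.249, 0.535 and 0.296 CPM in NC (5.70 ± 0.44). In SFD@M it was at 22.3, 26.8 and 27.5 CPM, where Blank had 1 count in all, a ratio of 1317 with a 95% counting interval of 236 to 52030.

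Col4a3, Col4a4 and Col4a5, the chains of the alveolar network, were closer to each other in level in OTUB1_KD and SFD@M than Col4a6 was to Col4a5. Per length, the ratio of Col4a3 to Col4a4 was 1.05 ± 0.079 in OTUB1_KD and 1.11 ± 0.164 in SFD@M, and that of Col4a5 to Col4a4 was 0.998 ± 0.189 and 0.766 ± 0.151 (SD, n = 3 each). Col4a6 to Col4a5 was 0.211 ± 0.0206 in OTUB1_KD and 0.224 ± 0.0201 in SFD@M. Col4a1 to Col4a2 was 1.26 ± 0.216 in OTUB1_KD and 1.57 ± 0.0252 in NC, and 1.3 ± 0.197 in SFD@M and 1.67 ± 0.031 in Blank. Type IV as a class took 22.1 ± 5.25% of collagen TPM in OTUB1_KD and 20.1 ± 0.131% in NC, and 40.0 ± 3.16% in SFD@M and 19.6 ± 0.27% in Blank (SD, n = 3). These shares also depend on the other classes, and fibrillar chains held 347 ± 114 TPM in SFD@M and 858 ± 11.1 TPM in Blank. Type IV itself held 402 ± 55.2 TPM in OTUB1_KD, 372 ± 10.6 in NC, 443 ± 86.3 in SFD@M and 327 ± 2.72 in Blank. Markers of 2 cell kinds that lay down alveolar basement membrane moved with these chains. The summed CPM of 9 alveolar epithelial markers was 11474 to 27696 in OTUB1_KD and 71.8 to 79.8 in NC, and 25213 to 27645 in SFD@M and 64.7 to 67.6 in Blank. That of 9 endothelial markers was 1252 to 3321 in OTUB1_KD and 33.8 to 33.9 in NC, and 3188 to 4400 in SFD@M and 14.2 to 15.1 in Blank. Their part in the levels of the type IV chains was not tested.

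**Figure D2:**
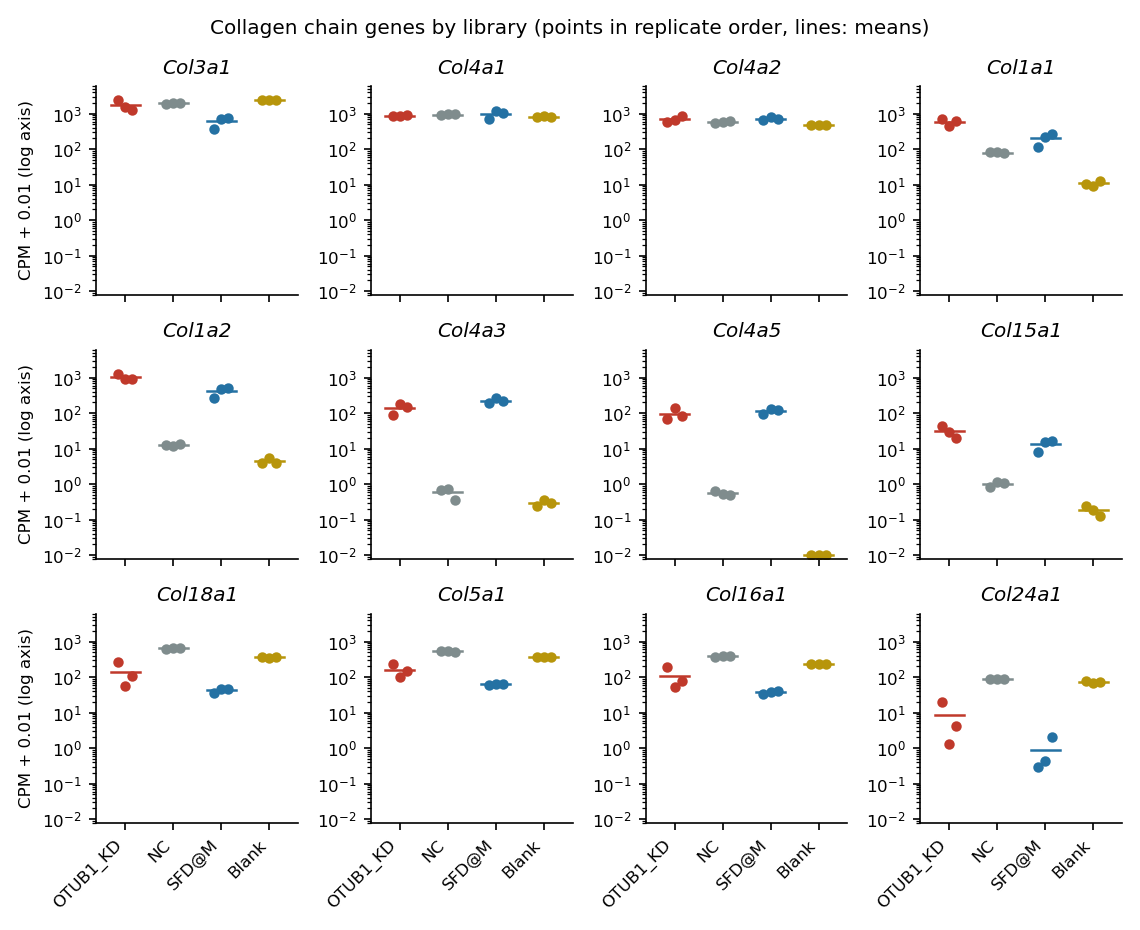
CPM + 0.01 on a log axis of 12 collagen chain genes in each library; points are libraries in replicate order and lines are group means. Col4a1 and Col4a2 are high in every library, Col1a2, Col4a3 and Col15a1 are higher in OTUB1_KD and SFD@M than in their controls, and Col18a1, Col5a1, Col16a1 and Col24a1 are lower.

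Of the type VI chains, which join in one molecule, Col6a1 and Col6a2 rose and Col6a3 fell. Col6a2 was at 264, 299 and 408 CPM in OTUB1_KD and 91.8, 89.4 and 91.2 CPM in NC (1.77 ± 0.21, edgeR adjusted p = 0.000466), and at 162, 225 and 250 CPM in SFD@M and 99.6, 101 and 101 CPM in Blank (1.04 ± 0.15, edgeR adjusted p = 0.000309). Col6a1 rose less, by 0.65 ± 0.19 (edgeR adjusted p = 0.02) and 0.35 ± 0.07 (edgeR adjusted p = 0.0024), or 0.49 and 0.12 relative to the median of all genes. The first call was lost without any 1 NC replicate (edgeR adjusted p = 0.0799 to 0.0926), and the second on the deposited TPM (0.08, limma adjusted p = 0.34). Col6a3, the largest of the 3 chains, was at 595, 204 and 418 CPM in OTUB1_KD and 838, 852 and 839 CPM in NC, and at 53.6, 109 and 123 CPM in SFD@M and 512, 503 and 512 CPM in Blank. It fell by 1.12 ± 0.38 (edgeR adjusted p = 0.034) and dropped by 2.46 ± 0.28 (edgeR adjusted p = 8.3e-05), and the first of these calls was lost without OTUB1_KD replicate 3 (edgeR adjusted p = 0.0866) or any 1 NC replicate (edgeR adjusted p = 0.0733 to 0.0778). The TPM ratio of Col6a3 to Col6a1 was 0.344 ± 0.174 in OTUB1_KD and 1.11 ± 0.0324 in NC, and 0.106 ± 0.0348 in SFD@M and 0.721 ± 0.0142 in Blank (SD, n = 3). Col6a5, an alternative to the alpha-3 chain, was at 10.0, 4.34 and 23.5 CPM in OTUB1_KD and at 3.41, 1.12 and 6.07 CPM in SFD@M, with 0 counts in all 6 controls. That is at least 212-fold above the floor of NC and at least 60.7-fold above that of Blank.

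The 2 multiplexin genes moved in opposite directions. Col18a1, whose product carries the endostatin domain at its end, was at 259, 57.0 and 111 CPM in OTUB1_KD and 624, 652 and 663 CPM in NC, and at 35.1, 47.0 and 47.5 CPM in SFD@M and 366, 356 and 359 CPM in Blank. It fell by 2.25 ± 0.52 (edgeR adjusted p = 0.00816) and dropped by 3.10 ± 0.12 (edgeR adjusted p = 1.8e-07). Col15a1, a related chain found around vessels and muscle, was at 43.8, 28.8 and 20.2 CPM in OTUB1_KD and 0.809, 1.13 and 1.07 CPM in NC, and at 8.16, 15.1 and 16.7 CPM in SFD@M and 0.232, 0.174 and 0.117 CPM in Blank. It rose by 4.87 ± 0.36 (edgeR adjusted p = 6.7e-05) and 6.16 ± 0.44 (edgeR adjusted p = 4.7e-06). The ratio of Col18a1 to Col15a1 TPM was 4.26 ± 2.12 in OTUB1_KD and 629 ± 89.9 in NC, and 3.18 ± 0.779 in SFD@M and 2121 ± 731 in Blank (SD, n = 3). Multiplexins in all took 2.41% of collagen TPM in OTUB1_KD and 11.1% in NC, and 1.31% in SFD@M and 7.07% in Blank.

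Of the 3 membrane-spanning chains tested, all rose in both comparisons, from group means under 1 CPM in both controls. At such levels a fall could hardly be called. Col23a1 passed the filter only through the groups where it was high. In SFD@M against Blank so did Col13a1, which had 4 counts in Blank. Col25a1, low in every group, was not tested. Col13a1, found at cell junctions, was at 26.8, 70.7 and 28.9 CPM in OTUB1_KD and at most 0.889 CPM in NC (5.82 ± 0.51, edgeR adjusted p = 0.00012), and at 53.2, 58.8 and 58.5 CPM in SFD@M and at most 0.116 CPM in Blank (9.35 ± 0.16, edgeR adjusted p = 7.2e-09). Col23a1 was at 41.5, 77.4 and 44.3 CPM in OTUB1_KD and at most 0.416 CPM in NC (7.96 ± 0.55), and at 102, 75.7 and 75.3 CPM in SFD@M and at most 0.292 CPM in Blank (9.38 ± 0.36). Col17a1, the hemidesmosomal collagen of epithelium, was lower, at 5.44 to 8.67 CPM in OTUB1_KD and 5.36 to 6.40 CPM in SFD@M (3.35 ± 0.34 against NC and 2.65 ± 0.22 against Blank).

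FACIT chains split. Col14a1, which lies on type I fibrils, was at 38.8, 75.3 and 60.1 CPM in OTUB1_KD and 2.30, 2.20 and 2.49 CPM in NC (4.57 ± 0.29, edgeR adjusted p = 4.0e-05), and at 32.5, 52.3 and 56.3 CPM in SFD@M and 1.39, 1.57 and 1.52 CPM in Blank (4.94 ± 0.27, edgeR adjusted p = 1.2e-06). Col16a1 was at 193, 51.1 and 76.3 CPM in OTUB1_KD and 373, 390 and 390 CPM in NC, and at 34.2, 37.8 and 41.6 CPM in SFD@M and 238, 231 and 239 CPM in Blank. It fell by 1.92 ± 0.48 (edgeR adjusted p = 0.0108; 0.0509 without OTUB1_KD replicate 3) and dropped by 2.68 ± 0.08 (edgeR adjusted p = 4.5e-08). Col12a1 fell by 1.45 in OTUB1_KD (edgeR adjusted p = 0.00877) and did not pass in SFD@M (-0.33, edgeR adjusted p = 0.204), where it was called at -0.59 without SFD@M replicate 3 (edgeR adjusted p = 0.0165). Col20a1 rose by 0.92 and 1.08. Col22a1 fell by 1.77 in OTUB1_KD from low levels (1.01 to 1.56 CPM in NC), a call lost without any 1 NC replicate (edgeR adjusted p = 0.0523 to 0.0892), and was not tested in SFD@M. Col9a3 passed in neither comparison (0.56 and -0.49), although its SFD@M libraries lay below those of Blank and it was called there on log2(TPM + 1) (-0.33, limma adjusted p = 0.00549) and on log2(TPM + 0.1) (-0.69, limma adjusted p = 0.0059).

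The 2 type VIII chains, which form hexagonal lattices under endothelium, moved apart. Col8a1 was at 34.9, 16.5 and 12.9 CPM in OTUB1_KD and 130, 138 and 135 CPM in NC, and at 22.2, 18.1 and 11.4 CPM in SFD@M and 37.5, 33.9 and 35.8 CPM in Blank. It fell by 2.72 ± 0.37 (edgeR adjusted p = 0.00083) and dropped by 1.09 ± 0.21 (edgeR adjusted p = 0.00157). Col8a2 rose by 4.54 ± 0.44 in OTUB1_KD (edgeR adjusted p = 0.000181) and 5.74 ± 0.26 in SFD@M (edgeR adjusted p = 3.2e-07). Col7a1, the anchoring fibril of skin, was at 75.1, 15.5 and 21.5 CPM in OTUB1_KD and 43.4 to 46.3 CPM in NC, with replicate 1 above NC and the others below it (-0.33, edgeR adjusted p = 0.614; -1.35 without replicate 1, edgeR adjusted p = 0.00145). It fell by 1.78 ± 0.14 in SFD@M (edgeR adjusted p = 6.4e-06). Col28a1 was at 1.83 to 3.11 CPM in OTUB1_KD, 66.4 times NC, which had 2 counts (95% counting interval 18.4 to 548), and rose by 4.42 ± 0.61 in SFD@M. Col26a1 had 0 counts in Blank and at most 1.06 CPM in SFD@M, at least 13.8-fold above the floor, and was not tested in OTUB1_KD.

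**Figure D3:**
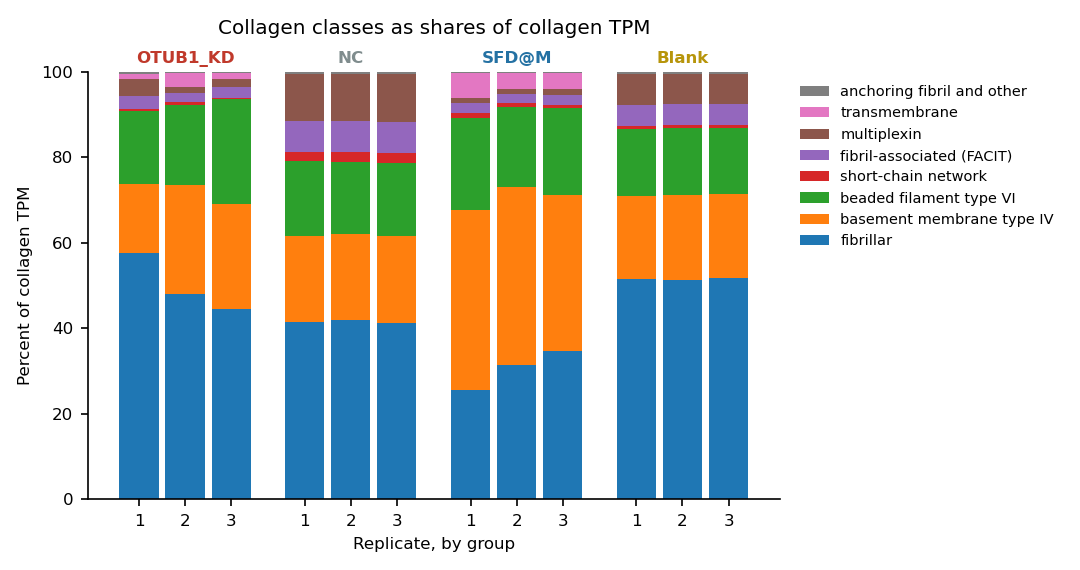
Share of collagen TPM (percent) taken by each structural class in each library, stacked, by group and replicate. Type IV takes 40.0% on average in SFD@M and 19.6 to 22.1% in the other 3 groups, and multiplexins are smaller in OTUB1_KD and SFD@M than in their controls. A share also depends on the other classes: fibrillar TPM was 347 in SFD@M and 858 in Blank.

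The summed markers of fibroblasts, of pericytes and smooth muscle, and of mesothelium were higher in OTUB1_KD and SFD@M than in their controls. The summed level of 12 fibroblast markers was 1713 to 3810 CPM in OTUB1_KD and 436 to 447 CPM in NC, and 2561 to 3211 CPM in SFD@M and 486 to 496 CPM in Blank, with 12 of 12 at 1 CPM or more in OTUB1_KD and SFD@M and 5 of 12 in each control. Tcf21, a lung fibroblast transcription factor, was at 0 in both controls. Of the 12 markers, 10 rose and 1 fell in each comparison; the one that fell was Lum, a proteoglycan that binds collagen fibrils. By library the sum was 1713, 3810 and 2537 CPM in OTUB1_KD replicates 1, 2 and 3, where Col1a2 was highest in replicate 1, and 3211, 2972 and 2561 CPM in SFD@M, where Col1a2 was lowest in replicate 1. The sum of 10 pericyte and smooth muscle markers was 498, 938 and 797 CPM in OTUB1_KD replicates 1, 2 and 3, and 123 to 136 CPM in NC. In SFD@M it was 548, 706 and 823 CPM, in the library order of Col1a2, and in Blank 93.8 to 98.8 CPM. In OTUB1_KD its order was not that of Col1a2. The sum of 5 mesothelial markers was 501 to 1113 CPM in OTUB1_KD and 2.31 to 2.50 CPM in NC. In SFD@M it was 568 to 723 CPM and in Blank 1.10 to 1.63 CPM, with Wt1 at 0 in both controls. The part of these cells in the collagen levels was not tested.

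The chain genes that fell did so to different remainders of their control level. In SFD@M replicates 1, 2 and 3, Col24a1 stood at 0.396, 0.556 and 2.70% of the Blank mean, and Y-linked transcripts at 0.442, 0.0475 and 0.158%. Col18a1, Col16a1 and Col5a1 kept more, at 9.73 to 13.2%, 14.5 to 17.6% and 15.8 to 17.9%. Col3a1 kept 15.1, 28.2 and 31.0%. In OTUB1_KD the remainders varied by library. In replicates 1, 2 and 3, Col24a1 stood at 21.9, 1.49 and 4.73% of the NC mean, Col18a1 at 40.1, 8.82 and 17.2%, Col16a1 at 50.1, 13.3 and 19.8%, and Col5a1 at 44.8, 18.9 and 27.8%. The order of replicate 1 highest and replicate 2 lowest held for 6 of the 10 chain genes that fell, for Y-linked transcripts and for the summed dividing-cell markers (774, 167 and 276 CPM, against 2403 to 2495 CPM in NC). The other 4 had another order: Col8a1 and Col11a2 were lowest in replicate 3, at 9.60 and 28.2%, Col12a1 was highest there, at 57.1%, and Col22a1 was lowest in replicate 1, at 9.14%. Whether the RNA left over came from tumour or host cells was not tested.

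**Figure D4:**
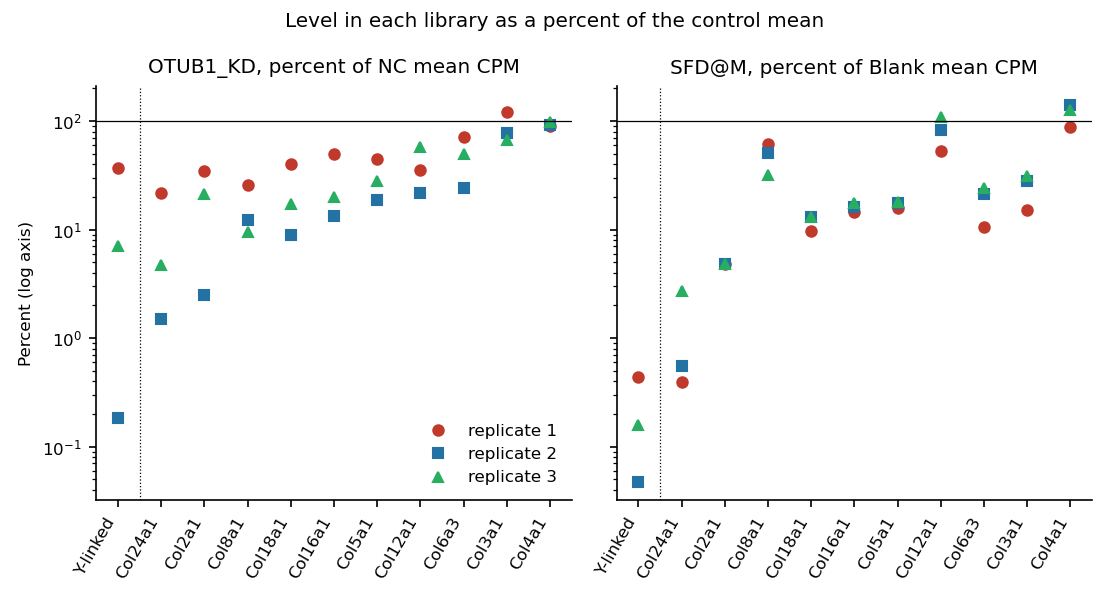
Level of the summed Y-linked transcripts and of 10 collagen chain genes in each OTUB1_KD library as a percent of the NC mean (left) and in each SFD@M library as a percent of the Blank mean (right), on a log axis; the solid line is 100%. Col24a1 is the lowest of the collagens drawn in SFD@M, at 0.396 to 2.70%, and Col4a1 stays near 100%, at 90.9 to 98.6% in OTUB1_KD and 87.8 to 141% in SFD@M.

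Transcript shares within some of these genes also differed between the groups. Of the 2 annotated Col5a1 transcripts, the curated one took 45.2 ± 14.1% of the gene's TPM in OTUB1_KD and 76.0 ± 2.58% in NC, and 43.3 ± 4.02% in SFD@M and 75.0 ± 0.184% in Blank (SD, n = 3), and no library of OTUB1_KD or SFD@M reached the controls. The main Col6a3 transcript took 81.7 ± 4.48% in OTUB1_KD and 52.2 ± 0.689% in NC, and 77.7 ± 5.75% in SFD@M and 57.1 ± 1.56% in Blank. The main Col18a1 transcript took 85.3 ± 10.1% in OTUB1_KD and 93.4 ± 0.414% in NC, and 74.6 ± 6.7% in SFD@M and 94.1 ± 1.11% in Blank. These are shares of estimated transcript levels, given as a description with no test.

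Set beside each other, SFD@M and OTUB1_KD libraries differed in 0 of 36 chain genes by the edgeR quasi-likelihood test, where 0.0134% of 14914 genes were called, both of them higher. At an unadjusted p below 0.05 there were 14. The share over all genes was not taken at that limit, so this count gives no result about the chain genes. DESeq2 called 11 chain genes, beside 1371 of all 14914 genes. Without OTUB1_KD replicate 2 edgeR called 12 of 37 chain genes, beside 1874 of all 15133. Libraries of SFD@M lay below all of OTUB1_KD for 13 chain genes and above for 1, beside 16.7 and 12.1% of all genes. The lower ones included Col1a1 (-1.56 ± 0.35, edgeR adjusted p = 0.101), Col1a2 (-1.3 ± 0.32, edgeR adjusted p = 0.108), Col3a1 (-1.49 ± 0.36, edgeR adjusted p = 0.104) and Col6a3 (-2.10 ± 0.46, edgeR adjusted p = 0.0983), and the higher one was Col4a3 (0.73 ± 0.27, edgeR adjusted p = 0.207). This comparison crosses the experiments, so experiment and group cannot be told apart.

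The controls differed from each other as well. In Blank against NC, 3 chain genes were higher (Col3a1, Col6a2 and Col9a3) and 22 lower, of 28 tested, where 74.3% of 12087 genes were called, 37% higher and 37.2% lower. A fit of all 12 libraries made 12 calls of 38 in place of 25, all of them lower. Over all genes it made 2701 calls of 15304 in place of 8977. Col1a1 was the most unequal among abundant chains, at 10.8 ± 1.44 CPM in Blank and 80.3 ± 2.35 CPM in NC (SD, n = 3; -2.90 ± 0.06, edgeR adjusted p = 1.1e-54). Col8a1 (-1.91), Col5a3 (-1.73), Col1a2 (-1.53) and Col12a1 (-1.44) were also lower in Blank, while Col3a1 was higher (0.34 ± 0.02, edgeR adjusted p = 5.2e-23). In the fit of all 12 libraries Col3a1 (0.29, edgeR adjusted p = 0.515), Col6a2 (edgeR adjusted p = 0.803), Col9a3 (edgeR adjusted p = 0.106) and Col5a3 (edgeR adjusted p = 0.0564) were not called. The controls again come from separate experiments.

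The changes of the 2 experiments were compared in 1 model over all 12 libraries. The change in OTUB1_KD against NC differed from that in SFD@M against Blank in 10 of 38 chain genes tested, beside 23.1% of 15304 genes. Col3a1 was the one gene with a positive difference (1.78 ± 0.38, edgeR adjusted p = 0.00941), its fall being in SFD@M. The other 9, Col1a1, Col4a3 to Col4a6, Col8a1, Col13a1, Col26a1 and Col27a1, had negative ones, and Col8a1 (-1.65 ± 0.45, edgeR adjusted p = 0.0253) was the only one of these whose level fell in both experiments. On log2(TPM + 1), 3 of 6 calls were positive, beside 2210 of 3707 over all genes. Without OTUB1_KD replicate 2 there were 20 calls of 38, 10 in each direction, beside 5523 of 15433 over all genes.

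Genes that process collagen split in the same comparisons. Of 92 genes tested from 7 lists along the pathway (96 in all), 45 rose and 27 fell in OTUB1_KD, with a median of 0.43, and 51 rose and 35 fell in SFD@M, with a median of 0.47; over all genes the medians were 0.16 and 0.23. Over all genes 65.8% were called in OTUB1_KD (39.9% higher, 25.8% lower) and 88.1% in SFD@M (49.5% higher, 38.7% lower), and a list whose share lies near these, such as the 9 of 15 hydroxylation genes called in OTUB1_KD, gives no result about the list. Among 15 genes of prolyl and lysyl hydroxylation and sugar transfer, 4 rose and 5 fell in OTUB1_KD and 4 rose and 8 fell in SFD@M. Plod2, the lysyl hydroxylase of telopeptides, was at 125 ± 90 CPM in OTUB1_KD and 817 ± 3.81 CPM in NC, and at 85.4 ± 13.9 CPM in SFD@M and 394.5 ± 4.55 CPM in Blank (SD, n = 3). It fell by 2.77 ± 0.49 (edgeR adjusted p = 0.00248) and dropped by 2.24 ± 0.12 (edgeR adjusted p = 9.4e-07). P4ha1, a subunit of prolyl hydroxylase, fell by 1.77 in OTUB1_KD and dropped by 1.44 in SFD@M.

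Cross-linking enzymes were divided by gene, 3 higher and 4 lower of 7 in both comparisons. Lox, lysyl oxidase, was at 94.1 ± 51.2 CPM in OTUB1_KD and 263 ± 23.0 CPM in SFD@M, with 0 counts in all 6 controls, at least 1553-fold and at least 4532-fold above their floors. Loxl1 rose by 7.98 ± 0.57 in OTUB1_KD (edgeR adjusted p = 5.6e-05). Loxl2, a relative that acts on basement membrane type IV collagen, was at 146 ± 78.2 CPM in OTUB1_KD and 371 ± 6.52 CPM in NC, and at 53.3 ± 11.1 CPM in SFD@M and 290.3 ± 5.72 CPM in Blank (SD, n = 3). It fell by 1.41 ± 0.38 (edgeR adjusted p = 0.0151) and dropped by 2.48 ± 0.15 (edgeR adjusted p = 2.1e-06).

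Of 17 genes tested for propeptide cleavage and fibril assembly, 10 rose and 3 fell in OTUB1_KD and 10 rose and 5 fell in SFD@M. Adamts2, which removes the amino-terminal propeptide of types I and III, had 0 counts in NC and was at least 1491-fold above the floor in OTUB1_KD. Postn, a matrix protein that binds collagen, rose by 10.93 ± 0.51 in OTUB1_KD (edgeR adjusted p = 1.7e-05). Pcolce, the enhancer of carboxy-terminal cleavage, fell by 2.65 ± 0.25 in SFD@M (edgeR adjusted p = 2.8e-05). Among 8 chaperone and export genes, 2 rose and 3 fell in OTUB1_KD and 3 rose and 5 fell in SFD@M, with Fkbp10, a procollagen chaperone, at -0.78 and -2.28, both called.

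Receptors rose in 10 and fell in 3 of 15 cases in OTUB1_KD and rose in 12 and fell in 3 in SFD@M. Mrc1, a macrophage receptor that takes up collagen, rose by 9.51 ± 0.49 in OTUB1_KD, while Ddr2, a receptor kinase for fibrillar collagen, fell by 0.88 ± 0.23 in OTUB1_KD and dropped by 1.97 ± 0.11 in SFD@M. TGF-beta and CTGF signals rose in 8 and fell in 3 of 15 in OTUB1_KD and rose in 9 and fell in 5 in SFD@M. Ltbp2, a matrix protein of the TGF-beta binding family, rose by 5.50 ± 0.49 and 8.30 ± 0.23. Partners of type IV collagen in the basement membrane rose in 8 and fell in 6 of 15 in OTUB1_KD and rose in 10 and fell in 5 in SFD@M. Within the laminin alpha chains, Lama4 was at 101 ± 16.5 CPM in OTUB1_KD and 0.141 ± 0.0393 CPM in NC (9.34 ± 0.27, edgeR adjusted p = 1.0e-05), and Lama1 at 6.82 ± 1.80 CPM in OTUB1_KD and 50.5 ± 1.52 CPM in NC (-2.96 ± 0.22, edgeR adjusted p = 6.6e-05).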

How the data were processed

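The authors deposited 1 table of 70659 transcripts; per the file headers it holds estimated counts (expected counts, some with decimals) and TPM for each library, the 2 units used here. Bowtie2, RSEM 1.3.1, DESeq2 1.4.5 and GRCm39 appear, per the submitters' processing notes, without order or settings; strand handling is not given in the sources used here. Expected counts were summed over each Entrez identifier and rounded, and 19155 of 19212 identifiers could be named from RefSeq (GRCm38.p6), used for names and promoter windows; unnamed ones took 0.342% of counts or less per library. The 44 genes have 156 transcripts. Levels are CPM of library totals; TPM compares genes. Each pair of groups was fitted with edgeR 4.0.16 in R 4.3.3 (filterByExpr, TMM, robust quasi-likelihood test, adjusted p below 0.05 as a call), checked first on simulated counts. Alternatives were other scalings and filters, DESeq2 1.42.0, limma 3.58.1 on log2 of TPM plus 1 or 0.1, all 12 libraries in 1 fit, a replicate block and leaving out each library. A gene at 0 is set at 3 counts per group; 1 to 3 counts get a 95% Poisson interval. Both reflect counting error alone, as reads here carry no molecular identifier. Any chain gene could be named; pathway genes were up to 3 largest called rises and falls per list and comparison, at 1 CPM or more and without overlap. The members, lists and tests were chosen with earlier results of these data known.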

Additional observations from a re-analysis of the deposited data

Results flagged for a closer look

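The 10 chain genes below changed differently in the 2 experiments by the edgeR interaction test, given as the log2 change in OTUB1_KD against NC minus that in SFD@M against Blank. Col3a1 (1.78, adjusted p = 0.00941) was lower in SFD@M in 3 of 3 libraries and overlapped NC in OTUB1_KD. Col1a1 (-1.39, adjusted p = 0.0283) rose in both experiments and its difference was lost in 7 of the fits that leave out 1 library (adjusted p up to 0.0728). Col8a1 (-1.65, adjusted p = 0.0253) fell in both, and the difference was lost without any 1 control library. It was also lost without SFD@M replicate 1 (adjusted p = 0.0641) or replicate 2 (adjusted p = 0.0566). Col4a3 (-1.76, adjusted p = 0.0404) and Col4a4 (-2.20, adjusted p = 0.0111) rose in both, and that of Col4a3 was lost with DESeq2 size factors (adjusted p = 0.0529), library totals (0.0507) and no filter (0.0546), and in 8 of the 12 fits that leave out 1 library (adjusted p = 0.0584 to 0.109). Col13a1 (-3.58, adjusted p = 0.0114) also rose in both, against 4 counts in Blank and 35 counts in NC. Col4a5 (-6.56, adjusted p = 0.00618), Col27a1 (-5.59, adjusted p = 0.00804) and Col26a1 (-4.87, adjusted p = 0.0139) had 0 counts in Blank and Col4a6 (-4.21, adjusted p = 0.00916) had 1, so these sizes depend on the prior count of the fit. On log2(TPM + 1) 7 of the 10 were not called: Col4a5 (-0.43), Col27a1 (-0.06), Col4a6 (-0.39), Col26a1 (-0.28), Col13a1 (-0.86, adjusted p = 0.115), Col4a3 (-0.75, adjusted p = 0.0839) and Col1a1 (-0.87, adjusted p = 0.128). In the same libraries Blank differed from NC in 25 of 28 chain genes, beside 74.3% of 12087 genes.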

How the results depend on the processing

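Of 80 alternative counts of chain genes called, 74 stayed within 1.5 times the reported ones, and of the values of single chain genes under the alternatives none turned a called direction round. The fit of all 12 libraries called 12 in Blank against NC and 14 in SFD@M against OTUB1_KD, where DESeq2 called 11. Over all genes that fit called 2701 and 2863 of 15304, and DESeq2 called 1371 of 14914. On log2(TPM + 1) the difference between the experiments had 6 calls, beside 3707 of 15304 over all genes. Leaving out 1 library gave 26 to 32 calls in OTUB1_KD against NC, 32 to 33 in SFD@M against Blank and 24 to 25 in Blank against NC. Over all genes these fits gave 7993 to 11142, 12775 to 13323 and 8702 to 8820 calls. Such fits gave 0 to 12 in SFD@M against OTUB1_KD and 7 to 20 in the difference between the experiments. Over all genes the most calls in these 2 were 1874 and 5523, both without OTUB1_KD replicate 2. The causes were not tested. Libraries with the same number did not vary together (correlation of deviations -0.00 to 0.05 in OTUB1_KD and NC, 0.00 to 0.01 in SFD@M and Blank, -0.07 to 0.08 in Blank and NC, -0.26 to -0.01 in SFD@M and OTUB1_KD). With a replicate block 28 were called in OTUB1_KD against NC, 32 in SFD@M against Blank and 25 in Blank against NC. There were 0 in SFD@M against OTUB1_KD and 9 in the difference. Over all genes the block fits called 9365, 13010, 8947, 7 and 2538, in the same order. Among the 2 within-experiment comparisons only Col6a1 in OTUB1_KD against NC left the calls (0.64, edgeR adjusted p = 0.0505). The difference of Col26a1 was lost too (edgeR adjusted p = 0.0582). At this depth 9 chain genes lay under 1 CPM in every group and differences among them were mostly not testable.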
